A study of Mus musculus with 29 samples.

Results

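The 36 genes described here encode enzymes of the tricarboxylic acid (TCA) cycle, the pyruvate dehydrogenase complex and its regulators, branched-chain amino acid breakdown and the use of ketone bodies. They were picked by gene symbol, by a rule that uses no measured value though earlier results of these data were known, from 20411 genes in a table of read counts from mouse hearts, and all 36 were present. Of these genes, 14 are counted with the TCA cycle, 4 with the pyruvate dehydrogenase complex and 3 with its regulators. The 14 include Mdh1, whose malate dehydrogenase is cytosolic. A further 5 form or regulate the branched-chain ketoacid dehydrogenase complex, 7 act at other steps of branched-chain amino acid breakdown and 3 handle ketone bodies. They lie on 16 chromosomes, and 2 of them, Idh3g and Pdha1, are on chromosome X.

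Wild-type BALB/c mice received an adeno-associated virus by vein that carried either GFP or REV-ERBα under the hepatocyte promoter Tbg, so no group was without a vector. REV-ERBα, the product of Nr1d1, is a nuclear receptor that represses transcription and forms part of the circadian clock. The groups PBS_GFP (n = 4) and PBS_REVERBa (n = 5) were then given saline, and the groups C26_GFP (n = 10) and C26_REVERBa (n = 10) were given C26 cells, a mouse colon carcinoma line used as a model of cancer cachexia, under the skin 10 days after the vector. Every library comes from a different animal. The labels spell the vector Tbg_AAV_REVERBa for the saline group and Tbg_AAV_REVERB for the tumour group. The sources used here give neither sex nor age, nor how long after tumour transplantation or at what time of day the hearts were taken. Heart Nr1d1 averaged 195 ± 39.5 CPM (SD; reads scaled to a common library size) in PBS_GFP, 199 ± 33.8 CPM in PBS_REVERBa, 137 ± 41.4 CPM in C26_GFP and 166 ± 42.9 CPM in C26_REVERBa, and a hepatocyte promoter means that these heart values do not check the vector.

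The TCA cycle oxidises acetyl-CoA in the mitochondrial matrix and passes the electrons to the respiratory chain, and the heart makes most of its ATP this way. Acetyl-CoA arrives from fatty acids, from pyruvate through pyruvate dehydrogenase, from ketone bodies through the enzyme encoded by Oxct1, and from branched-chain amino acids. Pyruvate dehydrogenase, branched-chain ketoacid dehydrogenase and 2-oxoglutarate dehydrogenase are built alike and share the E3 subunit encoded by Dld. Specific kinases switch the pyruvate and branched-chain complexes off, and specific phosphatases switch them on.

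Total counts per library ran from 3207497 to 16853646. Replicates 1 and 2 of PBS_GFP and replicates 4, 5 and 6 of C26_GFP exceeded 10000000 counts, and no other library did. The filter on low counts kept 12928 genes, among them all 36, and the smallest count of any of the 36 in any library was 107. The 12 cardiomyocyte markers were all present, with summed levels from 46400 to 69300 CPM. C26_REVERBa replicate 9 stood apart, with 471 CPM summed over 6 white adipocyte markers against at most 48.4 CPM elsewhere. In all 4 groups some libraries carried more atrial marker RNA than others, and in 8 libraries the mean atrial marker level was above 5 log2 CPM (1, 1, 3 and 3 in the order PBS_GFP, PBS_REVERBa, C26_GFP, C26_REVERBa).

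The deposited table names 1 RefSeq transcript per gene and its span in build mm10. Cs (NM_026444) spans chr10:128337832-128362479 on the plus strand, Idh3a (NM_029573) chr9:54586511-54604662 on the plus strand, Dlst (NM_030225) chr12:85110833-85134091 on the plus strand and Pdhb (NM_024221) chr14:8165991-8172992 on the minus strand. Oxct1 (NM_024188) spans chr15:4026428-4155344 on the plus strand and Idh2 (NM_173011) chr7:80094847-80115350 on the minus strand. The length used for counting, 2828 bases for Cs, is shorter than this span.

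Levels can be compared between genes only after division by gene length. In PBS_GFP hearts, citrate synthase (Cs) had the highest level per length of the 36 genes, 725 CPM per kb. It was followed by Oxct1 at 618 and Pdha1 at 616 CPM per kb, which did not differ beyond their spread. Ogdh, a subunit of 2-oxoglutarate dehydrogenase, had 441 CPM per kb, Mdh1 had 378, Dlst 364 and Idh2 351. At the other end stood the pyruvate dehydrogenase phosphatase gene Pdp1 at 21.1 CPM per kb and Mccc2, of leucine breakdown, at 17.8 CPM per kb. In C26_GFP hearts Pdha1 had 579 and Cs 575 CPM per kb, Idh2 had 511, and Oxct1 had 346.

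The RefSeq promoters (build GRCm38.p6, 250 bases before to 50 bases after the start) were available for 32 of the 36 genes. Their median GC content was 60.3%, against 61.0% for the promoters of 9851 tested genes. A search of both strands for 6 motifs found few matches. The E-box CACGTG was in 2 of 32 (6.25%, against 10.3% of 9851), in Pdk2 and Mccc2. The YY1 core GCCATNTT was in 4 of 32 (12.5%, against 8.53%), in Idh3b, Idh3g, Bckdha and Auh, and the ETS core CCGGAAGT was in 1 of 32 (3.12%, against 8.1%), in Dlst. The NRF1 core GCGCATGC (5.41% of 9851), the oestrogen-related receptor site TCAAGGTCA (0.244%) and the ROR/REV-ERB element ANTAGGTCA (0.335%) had no match in the 32 windows. The 5 stretches below lie upstream of the start and are written 5′ to 3′ on the gene's strand. Oxct1 is shown because it had the largest difference among the genes that passed for the tumour, Idh2 because it was the TCA cycle gene that moved the other way, and the other 3 because a motif lies upstream of their start. Capitals mark each CG in Oxct1 and Idh2, the E-box in Pdk2 and Mccc2, and the reverse complement of the YY1 core in Idh3g.
Oxct1 (chr15:4026368-4026427, plus strand): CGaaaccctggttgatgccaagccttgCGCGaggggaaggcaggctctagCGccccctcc
Idh2 (chr7:80115351-80115410, minus strand): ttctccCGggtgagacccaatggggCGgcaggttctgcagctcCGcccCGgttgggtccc
Pdk2 (chr11:95041463-95041522, minus strand): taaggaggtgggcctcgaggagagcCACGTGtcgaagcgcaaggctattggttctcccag
Mccc2 (chr13:100015640-100015699, minus strand): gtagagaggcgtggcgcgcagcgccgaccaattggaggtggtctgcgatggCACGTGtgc
Idh3g (chrX:73786993-73787052, minus strand): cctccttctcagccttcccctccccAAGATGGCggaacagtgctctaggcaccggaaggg
The Pdk2 E-box begins 126 bases and the Mccc2 E-box 9 bases before the start. These matches describe letters in a window, not bound sites.

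The tumour effect under the control vector was read from C26_GFP against PBS_GFP hearts. Here 16 of the 36 genes fell, 3 rose and 17 did not pass at an adjusted p under 0.05 from edgeR's quasi-likelihood test over all genes. The largest of the falls was in Oxct1, and genes of the TCA cycle and of the pyruvate dehydrogenase core were among those that fell, while Idh2, Pdk2 and Bckdha rose. Of all genes tested, 28.2% passed, 14.0% lower and 14.2% higher. The median log2 fold change was -0.18 over the 36 genes and 0 over all genes. For 11 of the 36 genes the levels of the 2 groups did not overlap, 1 higher and 10 lower, which was the case for 5.65% (higher) and 6.31% (lower) of all genes, or 12.0% together. In bulk tissue, fewer cardiomyocytes and less of an RNA in each cannot be told apart. The 12 cardiomyocyte markers moved with this result: 8 fell and 1 rose (median log2 fold change -0.36), none was at 0, and their summed level was 61000 to 65800 CPM in PBS_GFP and 46400 to 60200 CPM in C26_GFP. Of 8 macrophage markers 5 rose and 0 fell (median 0.55), none was at 0, and their summed level was 261 to 315 CPM in PBS_GFP and 340 to 498 CPM in C26_GFP, without overlap. The part of the macrophage markers in the result was not tested.

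**Figure D1:**
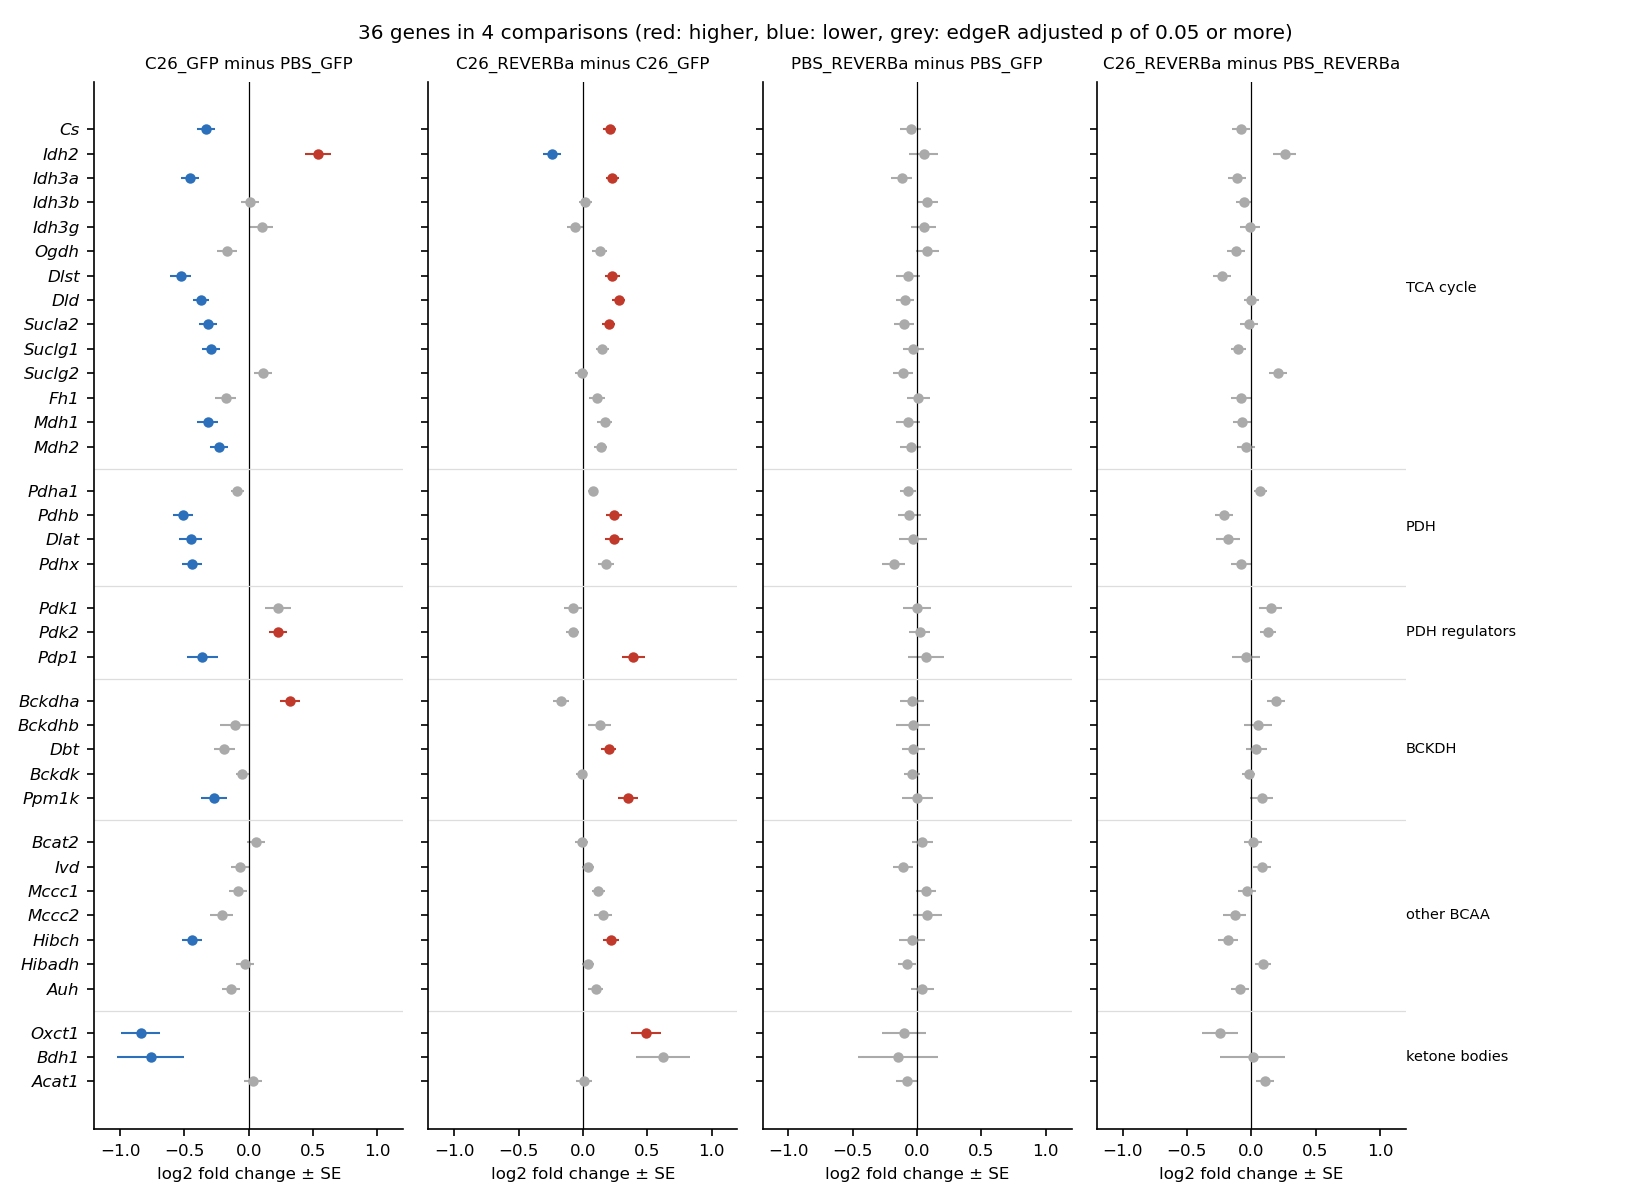
Log2 fold change ± SE (x axis) of each of the 36 genes (y axis, grouped by role) in 4 comparisons, with red for higher, blue for lower and grey for an edgeR adjusted p of 0.05 or more. In the tumour comparison under GFP 16 genes are blue and 3 red, in the vector comparison with a tumour 12 are red and 1 blue, and in the other panels all are grey.

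Of the 14 TCA cycle genes, 8 fell, 1 rose and 5 did not pass. The share that passed was 64.3%, against 28.2% of all genes tested. Cs, whose product condenses acetyl-CoA with oxaloacetate at the entry to the cycle, had 2130, 1990, 2090 and 2000 CPM in the 4 PBS_GFP hearts. The 10 C26_GFP hearts had 1480 CPM at the lowest, 1610 at the median and 1860 at the highest. All 10 lay below all 4 controls, and the log2 fold change was -0.33 ± 0.07 (SE, edgeR adjusted p = 0.000709). Dlst encodes the E2 core of 2-oxoglutarate dehydrogenase. It had 1050, 946, 1030 and 998 CPM in PBS_GFP, and 621, 697 and 814 CPM as the lowest, median and highest level in C26_GFP. The groups did not overlap, and Dlst fell by 0.53 ± 0.08 on the log2 scale (edgeR adjusted p = 1.32e-05). For Dld, the E3 subunit common to the 3 dehydrogenase complexes, the PBS_GFP levels were 314, 298, 298 and 297 CPM and those of C26_GFP ran from 215 through a median of 231 to 253 CPM. Again no C26_GFP heart reached the lowest control (log2 fold change -0.37 ± 0.06, edgeR adjusted p = 0.000104). Ogdh, the E1 subunit of the same complex as Dlst, had a log2 fold change of -0.17 ± 0.08 and did not pass (edgeR adjusted p = 0.097).

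The isocitrate dehydrogenases moved in opposite directions. Idh3a, the catalytic subunit of the NAD-dependent enzyme of the cycle, had 613, 580, 613 and 544 CPM in PBS_GFP and 363, 422 and 515 CPM as lowest, median and highest in C26_GFP. The groups did not overlap, and Idh3a fell by 0.46 ± 0.07 on the log2 scale (edgeR adjusted p = 1.92e-05). Idh2 encodes the mitochondrial NADP-dependent enzyme, which yields NADPH rather than NADH. Its levels were 635, 527, 623 and 602 CPM in PBS_GFP and ran from 746 through 843 to 1010 CPM in C26_GFP. All 10 C26_GFP hearts lay above all 4 controls, and Idh2 rose by 0.54 ± 0.10 (edgeR adjusted p = 0.000146). The other subunits of the NAD-dependent enzyme did not pass, with log2 fold changes of 0.01 ± 0.07 for Idh3b and 0.10 ± 0.09 for Idh3g.

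Among the subunits of succinyl-CoA synthetase, Sucla2, the β subunit of the ATP-forming enzyme, had 372, 310, 321 and 323 CPM in PBS_GFP and 238, 260 and 295 CPM as lowest, median and highest in C26_GFP. It fell without overlap, by 0.32 ± 0.07 on the log2 scale (edgeR adjusted p = 0.00116). Suclg2, the β subunit of the GTP-forming enzyme, had 156, 148, 146 and 154 CPM in PBS_GFP and 138, 163 and 183 CPM in C26_GFP, and did not pass (log2 fold change 0.11 ± 0.07, edgeR adjusted p = 0.271). Suclg1, the α subunit that both enzymes use, fell by 0.29 ± 0.07 (edgeR adjusted p = 0.00208). The malate dehydrogenase genes Mdh1 and Mdh2 fell by 0.32 ± 0.08 and 0.23 ± 0.07. Mdh2 encodes the mitochondrial enzyme of the cycle. Mdh1 encodes the cytosolic one, which is only counted here with the TCA cycle genes. The fumarase gene Fh1, at -0.18 ± 0.08, did not pass (edgeR adjusted p = 0.104). Mdh2 did not pass without PBS_GFP replicate 1 (edgeR adjusted p = 0.158).

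Of the 4 subunits of the pyruvate dehydrogenase complex, 3 fell and 1 did not pass (75% passed, against 28.2% of all genes tested). Pdhb, the β subunit of E1, had 442, 388, 419 and 423 CPM in PBS_GFP and 258, 294 and 329 CPM as lowest, median and highest in C26_GFP. Every C26_GFP heart was below every control, and Pdhb fell by 0.51 ± 0.08 on the log2 scale (edgeR adjusted p = 2.08e-05). Its partner in E1, the α subunit gene Pdha1, had 1360, 1300, 1380 and 1280 CPM in PBS_GFP and 1170, 1250 and 1340 CPM in C26_GFP, which overlapped (log2 fold change -0.09 ± 0.05, edgeR adjusted p = 0.209). Dlat, the E2 core, and Pdhx, which tethers E3 to it, fell without overlap, by 0.45 ± 0.09 and 0.44 ± 0.08.

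Of the 3 regulators of the complex, 1 rose, 1 fell and 1 did not pass (66.7% passed, against 28.2% of all genes tested). Pdk2, a kinase that inactivates E1, had 627, 546, 565 and 575 CPM in PBS_GFP and 585, 672 and 776 CPM in C26_GFP. The groups overlapped, and Pdk2 rose by 0.23 ± 0.07 (edgeR adjusted p = 0.0126), but not without PBS_GFP replicate 2 (edgeR adjusted p = 0.0581). Pdp1, a catalytic subunit of the phosphatase that reactivates E1, had 95.6, 91.4, 94.7 and 72.1 CPM in PBS_GFP and 49, 67.5 and 100 CPM in C26_GFP. It fell by 0.36 ± 0.12 on the log2 scale (edgeR adjusted p = 0.0235), and did not pass without PBS_GFP replicate 1, 2 or 3 (edgeR adjusted p up to 0.0935). The kinase gene Pdk1 had a log2 fold change of 0.23 ± 0.10 (edgeR adjusted p = 0.0739).

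In branched-chain amino acid breakdown, 2 of 12 genes fell, 1 rose and 9 did not pass. Of all genes tested, 28.2% passed in this comparison, so the share that passed here is near that of all genes. Bckdha, the E1 α subunit of branched-chain ketoacid dehydrogenase, had 270, 248, 258 and 248 CPM in PBS_GFP and 260, 326 and 352 CPM as lowest, median and highest in C26_GFP. It rose by 0.32 ± 0.08 (edgeR adjusted p = 0.00296), with overlap. Hibch, which acts in valine breakdown, had 51.6, 47, 49.9 and 58.7 CPM in PBS_GFP and 33.2, 37.4 and 43.1 CPM in C26_GFP. Its groups did not overlap, and it fell by 0.44 ± 0.08 on the log2 scale (edgeR adjusted p = 0.000291). Ppm1k, the phosphatase that activates the branched-chain complex, had 299, 294, 293 and 260 CPM in PBS_GFP and 194, 234 and 291 CPM in C26_GFP, and fell by 0.27 ± 0.10 (edgeR adjusted p = 0.0417). That call was lost when 1 of PBS_GFP replicates 1 to 3 or C26_GFP replicates 1, 2, 3, 4, 7, 8 and 10 was left out (edgeR adjusted p up to 0.118). The opposing kinase gene Bckdk stood at -0.05 ± 0.05 and the mitochondrial aminotransferase gene Bcat2, which starts the pathway, at 0.06 ± 0.07, and neither passed. The remaining 7 genes, Bckdhb, Dbt, Ivd, Mccc1, Mccc2, Hibadh and Auh, lay between -0.21 and -0.03.

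Of the 3 ketone body genes, 2 fell (66.7% passed, against 28.2% of all genes tested). Oxct1 encodes the enzyme that activates acetoacetate for oxidation in heart and other tissues outside the liver. It had 2030, 1780, 1880 and 1880 CPM in PBS_GFP and 762, 1030 and 1480 CPM as lowest, median and highest in C26_GFP. The groups did not overlap, and Oxct1 fell by 0.84 ± 0.15 on the log2 scale (edgeR adjusted p = 0.000132), to 56.1% of the PBS_GFP mean. Bdh1, which interconverts β-hydroxybutyrate and acetoacetate, had 503, 480, 446 and 545 CPM in PBS_GFP. In C26_GFP it spread from 145 through 265 to 480 CPM. Bdh1 fell by 0.76 ± 0.26 (edgeR adjusted p = 0.0295), with overlap, and did not pass without PBS_GFP replicate 1, 2 or 4 (edgeR adjusted p up to 0.0806). Acat1, the thiolase of the last step, had a log2 fold change of 0.03 ± 0.07 (edgeR adjusted p = 0.835).

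**Figure D2:**
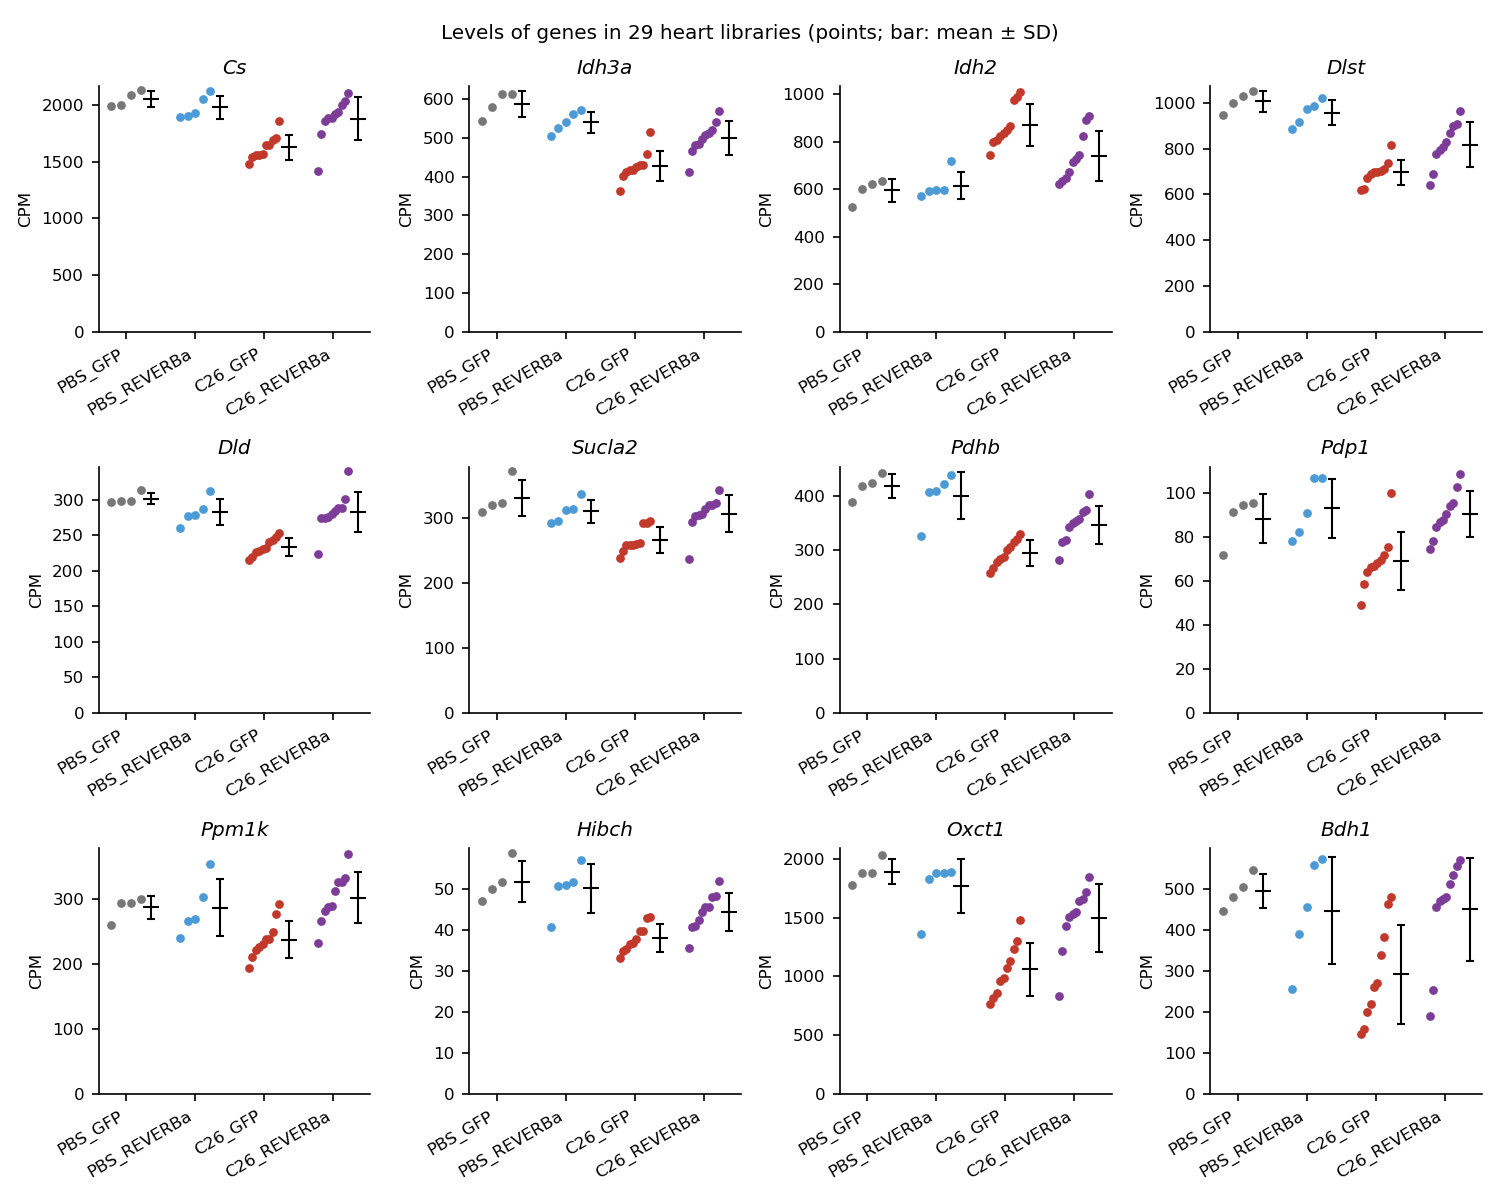
Level in CPM (y axis, from 0) of 12 of the genes in each of the 29 hearts by group (x axis), points sorted by level within a group, with mean ± SD beside them. For Cs, Idh3a, Dlst, Dld, Sucla2, Pdhb, Hibch and Oxct1 every C26_GFP point lies below every PBS_GFP point and for Idh2 above, while the C26_REVERBa points spread across both.

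A fit with the mean log2 level of the 12 cardiomyocyte markers as a covariate was run beside these results. In it Idh2 rose by 0.55 ± 0.14 (edgeR adjusted p = 0.0462), and 0 of the 36 genes fell (5 lower and 6 higher at an unadjusted p under 0.05). The same fit passed 1.07% of all genes at the adjusted threshold. The share of all genes at an unadjusted p under 0.05 in it is not reported here. Oxct1 stood at -0.27 ± 0.18 (edgeR adjusted p = 0.515) and Cs at -0.10 ± 0.09. Of the 16 genes that had fallen, Mdh1 (0.05), Mdh2 (0.05), Ppm1k (0.04) and Bdh1 (0.05) changed sign. So did Ogdh (0.08), Fh1 (0.15), Bckdhb (0.29), Ivd (0.02), Mccc1 (0.17), Mccc2 (0.14) and Auh (0.11), which had not passed. The marker mean was 11.2 to 11.39 log2 CPM in PBS_GFP and 10.81 to 11.17 log2 CPM in C26_GFP, so the marker level and the tumour cannot be told apart in this comparison.

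**Figure D3:**
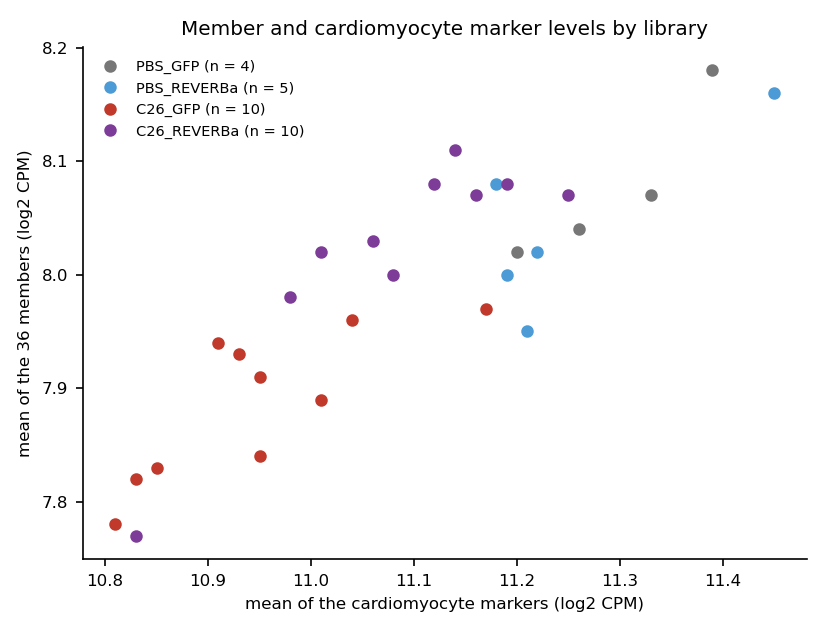
Mean log2 CPM of the 36 genes (y axis) against mean log2 CPM of 12 cardiomyocyte markers (x axis), 1 point per heart, coloured by group. C26_GFP hearts lie at 7.78 to 7.97 on the y axis and 10.81 to 11.17 on the x axis, below and to the left of the PBS_GFP hearts at 8.02 to 8.18 and 11.2 to 11.39.

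The comparison of C26_REVERBa with C26_GFP asked whether hepatocyte REV-ERBα altered the heart of tumour-bearing mice. Of the 36 genes, 12 rose, 1 fell and 23 did not pass, and the median log2 fold change was 0.14. The genes that rose belong to the TCA cycle (Cs, Idh3a, Dlst, Dld, Sucla2), the pyruvate dehydrogenase complex (Pdhb, Dlat) and its phosphatase (Pdp1), branched-chain breakdown (Dbt, Ppm1k, Hibch) and ketone body use (Oxct1), and Idh2 fell. A fit of these 2 groups alone passed 6 higher (Idh3a, Dld, Pdhb, Pdp1, Ppm1k, Oxct1) and 0 lower, and Cs, Dlst, Sucla2, Dlat, Dbt, Hibch and Idh2 missed the threshold in it (edgeR adjusted p from 0.052 to 0.0968). In the fit of all 4 groups 7.20% of all genes passed, 3.75% higher and 3.45% lower, with a median of 0. The share of all genes in the fit of 2 groups is not reported here. For 0 of the 36 genes were the 2 groups apart without overlap, which was so for 0.0155% (higher) and 0.00774% (lower) of all genes, or 0.0232% together. This comparison and the tumour comparison above share the 10 C26_GFP hearts, so their values are given side by side and not as independent of each other.

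In the TCA cycle, Dld rose by 0.28 ± 0.05 (edgeR adjusted p = 0.00655), the smallest p of the 36 genes. Its C26_REVERBa levels were 224 CPM at the lowest, 282 at the median and 340 at the highest, against a median of 231 CPM in C26_GFP and 302 ± 8.19 CPM (SD, n = 4) in PBS_GFP. Idh3a had 413, 503 and 570 CPM in C26_REVERBa and rose by 0.23 ± 0.05 (edgeR adjusted p = 0.015). Cs, with 1420, 1900 and 2100 CPM, rose by 0.21 ± 0.05 (edgeR adjusted p = 0.0226). Dlst, with 643, 817 and 962 CPM, rose by 0.23 ± 0.06, and Sucla2, with 237, 310 and 344 CPM, rose by 0.20 ± 0.05. The calls of Cs, Dlst and Sucla2 did not hold without C26_REVERBa replicate 7 (edgeR adjusted p = 0.0535, 0.0553 and 0.0511). Idh2, with 624, 722 and 910 CPM, fell by 0.24 ± 0.07 on the log2 scale (edgeR adjusted p = 0.0423). Its call was lost without any 1 of 13 libraries, which were C26_GFP replicates 1, 2, 4, 5, 7 and 10 and C26_REVERBa replicates 1, 3, 4, 5, 7, 8 and 10 (edgeR adjusted p up to 0.0925). Suclg2, which did not pass for the tumour, stood at -0.01 ± 0.05.

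In the pyruvate dehydrogenase step, Pdhb rose by 0.24 ± 0.06 (edgeR adjusted p = 0.0199), with 282, 351 and 404 CPM as lowest, median and highest in C26_REVERBa. Dlat rose by 0.24 ± 0.07 (edgeR adjusted p = 0.0403), a call lost without C26_GFP replicate 1, 2, 4, 5, 7, 8 or 10 or C26_REVERBa replicate 1, 3, 4, 5, 7, 8 or 10 (edgeR adjusted p up to 0.0857). Pdhx, at 0.18 ± 0.06, did not pass (edgeR adjusted p = 0.0697), nor did Pdha1 at 0.08 ± 0.04. The phosphatase gene Pdp1 had 74.5, 89.3 and 109 CPM in C26_REVERBa and rose by 0.39 ± 0.09 (edgeR adjusted p = 0.015). The kinase genes Pdk1 and Pdk2 both stood at -0.08 and did not pass.

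Of the branched-chain genes, Ppm1k had 232, 300 and 369 CPM as lowest, median and highest in C26_REVERBa and rose by 0.35 ± 0.08 (edgeR adjusted p = 0.0126). Bckdk, its opposing kinase, had a median of 79 CPM in C26_REVERBa and 80.3 CPM in C26_GFP (log2 fold change -0.01 ± 0.04, edgeR adjusted p = 0.917). Hibch, with 35.7, 44.9 and 51.9 CPM, rose by 0.22 ± 0.06 (edgeR adjusted p = 0.0395), but not without C26_GFP replicate 1, 4, 5, 7, 8 or 10 or C26_REVERBa replicate 1, 3, 5, 7 or 8 (edgeR adjusted p up to 0.0817). Dbt, the E2 core of the branched-chain complex, had 118, 165 and 189 CPM and rose by 0.20 ± 0.06 (edgeR adjusted p = 0.048). Its call held only when the library left out was C26_GFP replicate 2, 6 or 9 or C26_REVERBa replicate 9, and was lost with each of the other 25 (edgeR adjusted p up to 0.095). Bckdha stood at -0.17 ± 0.06 and did not pass (edgeR adjusted p = 0.0697).

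Oxct1 had 831 CPM at the lowest, 1540 at the median and 1850 at the highest in C26_REVERBa, against a median of 1030 CPM in C26_GFP. It rose by 0.49 ± 0.12 (edgeR adjusted p = 0.015), or 1.41-fold, and its C26_REVERBa mean of 1490 ± 289 CPM (SD, n = 10) lay between those of C26_GFP (1060 ± 229 CPM) and PBS_GFP (1890 ± 102 CPM). Bdh1 had 190, 476 and 569 CPM in C26_REVERBa. Its log2 fold change of 0.62 ± 0.21 was the largest of the 36 genes and did not pass (edgeR adjusted p = 0.0591).

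The levels within C26_REVERBa spread widely, and replicate 9, which also carried the adipocyte RNA, had the lowest Cs, Sucla2 and Mdh2 levels of its group. This library also had the group's lowest cardiomyocyte marker mean (10.83 log2 CPM) and highest summed hepatocyte marker level (158 CPM). Its atrial marker mean was 6.92 log2 CPM. Without replicate 9, 19 of the 36 genes rose and 1 fell, and without replicate 7, 6 rose and 0 fell. These counts cover the 36 genes alone, and the share of all genes passing in the same fits is not reported here. Idh3a, Dld, Pdhb, Pdp1, Ppm1k and Oxct1 passed without any 1 library. Of the cardiomyocyte markers, 1 of 12 rose and 0 fell in this comparison, or 8.33%, against 7.20% of all genes tested. At an unadjusted p under 0.05, 8 were higher and 1 lower, or 75%, against 24.3% of all genes. Their median was 0.17 and their summed levels were 49100 to 63400 CPM in C26_REVERBa. With their mean as a covariate, 0 of the 36 genes passed (8 higher and 3 lower at an unadjusted p under 0.05). In that fit 0.0309% of all genes passed, and their share at an unadjusted p under 0.05 is not reported here. Of 8 macrophage markers 2 fell, or 25%, against 7.20% of all genes tested. Their summed level was 340 to 498 CPM in C26_GFP and 294 to 411 CPM in C26_REVERBa, with none at 0. The part of these markers in the result was not tested beyond that fit.

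In mice without a tumour, 0 of the 36 genes differed between PBS_REVERBa and PBS_GFP, and 0 of 12928 genes passed. At an unadjusted p under 0.05, 0 of the 36 and 4.1% of all genes stood out, and 0 of the 36 passed with DESeq2 or limma voom, which each called 1 gene over their whole tables. The log2 fold changes of the 36 ran from -0.18 (Pdhx) to 0.08, with a median of -0.04. For Oxct1 the PBS_REVERBa levels were 1880, 1880, 1360, 1830 and 1890 CPM, and replicate 3 was the low one. Bdh1 was also lowest in replicate 3, with 456, 573, 255, 389 and 558 CPM. That library was the only PBS_REVERBa heart with an atrial marker mean above 5 log2 CPM (6.89), and the part of this was not tested. The PBS_REVERBa levels of Dld were 287, 277, 261, 312 and 278 CPM, which overlapped those of PBS_GFP (log2 fold change -0.09 ± 0.07). An interval of 2 SE around that value allows a difference from -0.24 to 0.06, and the intervals for Oxct1 and Bdh1 are wider, at -0.44 to 0.25 and -0.76 to 0.47.

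Under the REV-ERBα vector, C26_REVERBa against PBS_REVERBa, 0 of the 36 genes passed with edgeR, while 7.23% of all genes did, 4.05% higher and 3.19% lower. At an unadjusted p under 0.05, 4 of the 36 were higher and 4 lower, or 22.2%, against 23.6% of all genes tested. DESeq2 passed 1 higher and 2 lower, and limma voom 1 higher and 2 lower. The shares of all genes in these fits are not reported here. The median log2 fold change was -0.03. The smallest adjusted p was that of Dlst, with 985, 974, 884, 1020 and 917 CPM in PBS_REVERBa and a median of 817 CPM in C26_REVERBa (log2 fold change -0.23 ± 0.07, edgeR adjusted p = 0.0513). Idh2, with 599, 572, 593, 718 and 597 CPM in PBS_REVERBa, stood at 0.26 ± 0.09 (edgeR adjusted p = 0.0677), and Suclg2 at 0.21 ± 0.07 (edgeR adjusted p = 0.0652). Oxct1 stood at -0.24 ± 0.14 and Dld at 0 ± 0.06.

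Whether the tumour effect differed between the vectors was tested as an interaction, and 0 of the 36 genes and 0 of all genes passed with edgeR. At an unadjusted p under 0.05, 14 of the 36 had a higher and 1 a lower tumour effect under REV-ERBα, against 10.5% of all genes in either direction. DESeq2 passed 2, Idh3a and Dld, and limma voom passed Dld. The median interaction was 0.16 on the log2 scale over the 36 and 0 over all genes. For Dld it was 0.37 ± 0.09 (edgeR adjusted p = 0.301), for Idh3a 0.35 ± 0.10 and for Oxct1 0.59 ± 0.21 (edgeR adjusted p = 0.344). A gene that passed for the tumour under GFP and not under REV-ERBα is therefore not shown by edgeR to differ between the vectors.

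Ratios between genes of the same step do not depend on how libraries are scaled. Taking 9 such ratios in each of 4 comparisons gave 36 two-sided permutation tests, and adjusted values below are Benjamini-Hochberg over these 36. The ratios can still depend on the mix of cells, and none was fitted with the cardiomyocyte marker mean. With that mean as a covariate, the tumour effect under GFP was 0.55 for Idh2, -0.24 for Idh3a, -0.06 for Sucla2 and 0.07 for Suclg2. It was -0.04 for Pdha1, -0.18 for Pdhb, 0.34 for Bckdha, 0.29 for Bckdhb, 0.18 for Pdk2 and -0.12 for Pdp1. The part of the cell mix in the ratios was not tested. The log2 ratio of Idh2 to Idh3a per length was 0.55, 0.36, 0.52 and 0.64 in PBS_GFP and ran from 1.15 through a median of 1.53 to 1.92 in C26_GFP. It rose by 1.01 without overlap (exact permutation p = 0.002, the smallest this design can give, adjusted 0.0147). That separation follows from Idh2 lying above and Idh3a below every control, as given above, and is not a further result. With the REV-ERBα vector the ratio was lower in C26_REVERBa by 0.47, at 0.63 to 1.5 (permutation p = 0.00156, adjusted 0.0147). Between PBS_REVERBa and C26_REVERBa it rose by 0.37 (exact permutation p = 0.00866, adjusted 0.0312), a call lost without PBS_REVERBa replicate 1, 2 or 3 (adjusted up to 0.0719).

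The ratio of Sucla2 to Suclg2, ATP-forming against GTP-forming, was 1.95, 1.76, 1.83 and 1.76 in PBS_GFP and 1.19 to 1.6 in C26_GFP. It fell by 0.42 without overlap (exact permutation p = 0.002, adjusted 0.0147), and was 0.22 higher in C26_REVERBa than in C26_GFP (permutation p = 0.00566, adjusted 0.0255). Sucla2 alone lay below every control, as given above, so the separation under GFP is not independent of that result. Under REV-ERBα the tumour groups differed by -0.23 (exact permutation p = 0.0127, adjusted 0.038). That call was lost without PBS_REVERBa replicate 1, 2, 3 or 4 or C26_REVERBa replicate 2, 5, 6, 7 or 9 (adjusted up to 0.0976). Pdha1 to Pdhb, the E1 subunits of pyruvate dehydrogenase, was 1.08, 1.21, 1.18 and 1.05 in PBS_GFP and 1.29 to 1.75 in C26_GFP, a rise of 0.42 without overlap (exact permutation p = 0.002, adjusted 0.0147). Here Pdhb alone lay below every control, so that separation is not independent of the Pdhb result either. The ratio rose by 0.27 under the REV-ERBα vector as well (exact permutation p = 0.00333, adjusted 0.0177). Between C26_REVERBa and C26_GFP it differed by -0.15 and did not pass (permutation p = 0.0338, adjusted 0.087).

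Kinase against phosphatase ratios were also compared. Pdk2 to Pdp1 was 3.60, 3.47, 3.47 and 3.89 in PBS_GFP and 3.44 to 4.88 in C26_GFP, where it rose by 0.60 (exact permutation p = 0.012, adjusted 0.038). That call held when the library left out was C26_GFP replicate 6 or 9 and was lost without each of the other 12 libraries compared (adjusted up to 0.0968). It was 0.49 lower in C26_REVERBa than in C26_GFP (permutation p = 0.00344, adjusted 0.0177). Bckdk to Ppm1k stood 0.36 lower in C26_REVERBa than in C26_GFP (permutation p = 0.00204, adjusted 0.0147), and its difference of 0.23 for the tumour under GFP did not pass (exact permutation p = 0.0639, adjusted 0.144) unless C26_GFP replicate 6 was left out (adjusted 0.0288). Bckdha to Bckdhb rose by 0.42 for the tumour under GFP (exact permutation p = 0.016, adjusted 0.0443), a call that leaving out any PBS_GFP library, any C26_GFP library but replicate 6, or PBS_REVERBa replicate 1, 2 or 3 ended (adjusted up to 0.144). In tumour-bearing mice it was 0.31 lower with REV-ERBα (permutation p = 0.008, adjusted 0.0312), but not without C26_GFP replicate 4 (adjusted 0.0503). Pdk4 to Pdk2, Oxct1 to Bdh1 and Mccc1 to Mccc2 did not pass in any comparison, and no ratio passed between PBS_REVERBa and PBS_GFP.

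**Figure D4:**
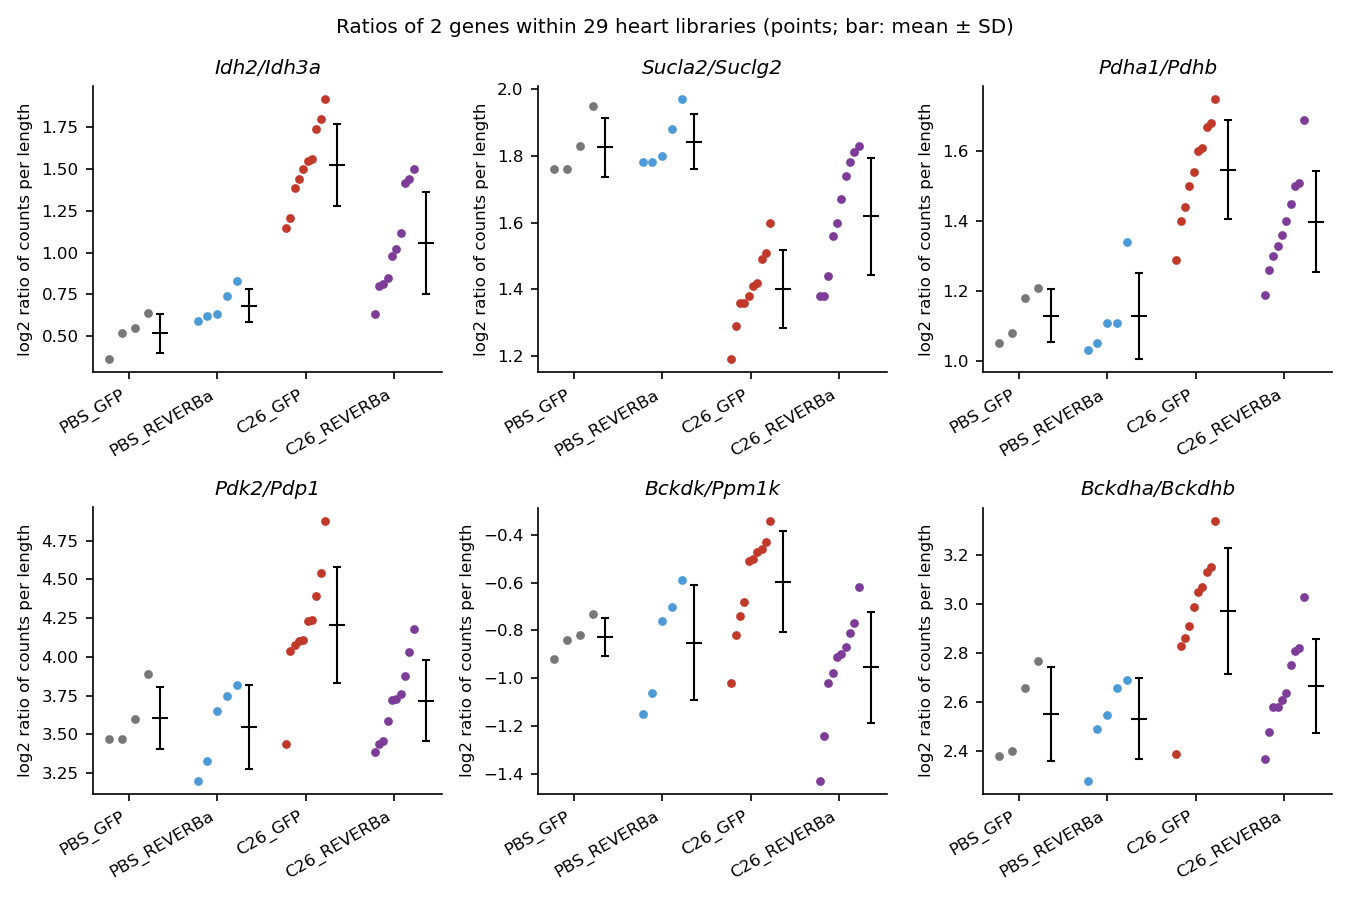
Log2 ratio of counts per length (y axis) for 6 gene pairs in each of the 29 hearts by group (x axis), points sorted within a group, with mean ± SD beside them; the y axes do not start at 0. For Idh2/Idh3a and Pdha1/Pdhb all C26_GFP points lie above all PBS_GFP points and for Sucla2/Suclg2 all lie below.

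Other genes of these pathways were counted from lists that leave out the 36. Of 16 further TCA cycle and anaplerotic genes, 3 fell and 2 rose with the tumour under GFP. That is 31.2%, against 28.2% of all genes tested. Sdhd, a membrane anchor of succinate dehydrogenase, fell by 0.38 ± 0.07 (edgeR adjusted p = 0.000222) and rose by 0.18 ± 0.06 with REV-ERBα in tumour-bearing mice (edgeR adjusted p = 0.0472). Its catalytic partner Sdha, at -0.05 ± 0.06, did not pass. The malic enzyme genes Me2 (-0.42 ± 0.15) and Me1 (-0.17 ± 0.06) fell and Me3 (0.19 ± 0.07) rose. Me2 was low throughout, with a mean of 10.1 CPM in PBS_GFP.

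Of 11 genes around pyruvate dehydrogenase, 5 fell with the tumour under GFP and 0 rose (45.5% passed, against 28.2% of all genes tested). They include Pdp2, the other phosphatase of the complex, at -0.62 ± 0.15 (edgeR adjusted p = 0.00302), and the mitochondrial pyruvate carrier gene Mpc2 at -0.38 ± 0.09. Also among them are Lipt1 (-0.52 ± 0.11) and Lipt2 (-0.54 ± 0.12), which act in supplying the lipoate that the E2 subunits carry. With REV-ERBα in tumour-bearing mice Pdp2 rose by 0.47 ± 0.12 (edgeR adjusted p = 0.0215) and Lipt1 by 0.31 ± 0.08 (edgeR adjusted p = 0.0252). The kinase gene Pdk4, which fasting is known to raise, had 1350 to 1970 CPM in PBS_GFP and 408 to 6250 CPM in C26_GFP. That spread held its log2 fold change of 0.95 ± 0.51 short of the threshold (edgeR adjusted p = 0.167).

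Of 15 further genes of branched-chain and propionate breakdown, 3 rose and 2 fell with the tumour under GFP. That is 33.3%, against 28.2% of all genes tested. Acadsb, which oxidises the isoleucine intermediate, had 256 to 270 CPM in PBS_GFP and 297 to 409 CPM in C26_GFP and rose by 0.40 ± 0.08 (edgeR adjusted p = 0.000231). Klf15, a transcription factor known to promote branched-chain amino acid breakdown, rose by 0.48 ± 0.13 (edgeR adjusted p = 0.00485). Mut (-0.20 ± 0.06) and Mcee (-0.28 ± 0.08), which carry propionyl carbon to succinyl-CoA, fell. With REV-ERBα in tumour-bearing mice Mut rose by 0.16 ± 0.05 (edgeR adjusted p = 0.0394) and was the only gene of the 15 to pass. That is 6.67%, against 7.20% of all genes tested.

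Of 6 further ketone and acetate genes 4 could be tested, and 2 rose and 1 fell with the tumour under GFP. That is 75% of those tested, against 28.2% of all genes tested. Acss1, which activates acetate in mitochondria, rose without overlap by 0.74 ± 0.11 (edgeR adjusted p = 1.88e-05), from 603 to 642 CPM in PBS_GFP to 757 to 1240 CPM in C26_GFP. The monocarboxylate transporter gene Slc16a1 fell by 0.32 ± 0.09. In tumour-bearing mice Acss1 was lower with REV-ERBα (-0.30 ± 0.08, edgeR adjusted p = 0.0263). Acadsb, Klf15 and Acss1 also rose with the tumour under REV-ERBα, by 0.35 ± 0.07, 0.50 ± 0.12 and 0.53 ± 0.10.

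Set beside other mitochondrial lists, the 36 genes had a median log2 fold change of -0.18 with the tumour under GFP, the 51 nuclear genes of the respiratory chain -0.20, the 33 mitochondrial ribosome genes -0.28 and the 18 β-oxidation genes 0.14. Of the respiratory chain genes 25 fell and 0 rose, of the ribosome genes 18 fell and 0 rose, and of the β-oxidation genes 0 fell and 3 rose. With REV-ERBα in tumour-bearing mice 5 respiratory chain genes and 5 ribosome genes rose and 0 β-oxidation genes passed (0 higher and 2 lower at an unadjusted p under 0.05), with medians of 0.07, 0.10 and -0.06. The differences between lists were not tested. Of all genes tested, 28.2% passed with the tumour under GFP and 7.20% with REV-ERBα in tumour-bearing mice. At an unadjusted p under 0.05 the latter share was 24.3%.

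**Figure D5:**
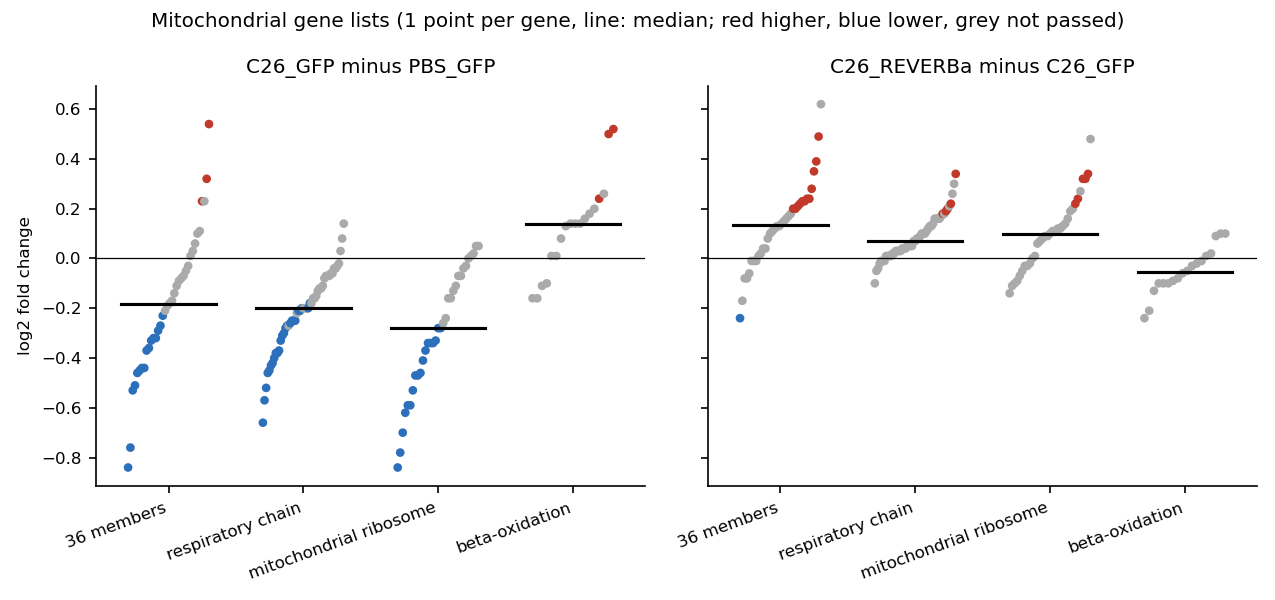
Log2 fold change (y axis) of each gene of 4 mitochondrial lists (x axis) in 2 comparisons that share the C26_GFP hearts, with red for higher, blue for lower, grey for not passed and a line at the list's median. The medians of the left panel are -0.18, -0.20, -0.28 and 0.14, and those of the right panel 0.14, 0.07, 0.10 and -0.06.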

How the data were processed

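The authors deposited raw read counts per gene, with a gene length in the same table per the file headers, for 29 libraries. Per the labels' protocols, RNA from 200 mg of heart (50 to 100 ng per library) went through a stranded kit without poly(A) selection and was sequenced as 50 bp pairs. STAR 2.4.2a, DESeq2 1.24.0 and build mm10 are named in the submitters' processing notes; the counting tool and strand setting (not given in the sources used here) were not inferred. From the counts, edgeR 4.0.16 (limma 3.58.1, R 4.3.3) fitted the 4 group means by quasi-likelihood with TMM scaling, on 12928 genes kept by its filter (minimum count 10, minimum total 15). P-values were Benjamini-Hochberg adjusted over all of them, and 0.05 was the threshold. CPM use TMM-scaled library sizes, and levels per kb use the deposited length. Ratios were tested by permutation (scipy 1.17.1). The script was tested on simulated data. Deposited starts match RefSeq GRCm38.p6 for 23 of the 36 genes after adding 1, so coordinates are 1-based. No 2 libraries agreed within sampling noise (chi-square per degree of freedom at least 2.62 over 406 pairs), and 1 per-sample column that matches no label was not used. The text names the 36 genes, up to 4 genes of each other pathway list with the smallest adjusted p under 0.05 in each of the 2 main comparisons, and Pdk4, Sdha and Klf15 whatever their values; some genes that this rule names are not reported here. The members, lists and tests were chosen with earlier results of these data known. Alternatives were other scalings, filters, DESeq2 1.42.0, limma voom, a replicate block, covariates and leaving out libraries.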

Additional observations from a re-analysis of the deposited data

Results flagged for a closer look

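Among the 36 genes in 4 groups, 16 of 144 gene and group combinations had 1 library far from the others of its group. The cut-off flags about 1 in 20 independent sets by chance. The 36 genes share the same libraries, so that rate does not show whether 16 is an excess. The 16 combinations come from 7 libraries. C26_REVERBa replicate 9, with white adipocyte RNA and the lowest cardiomyocyte marker mean of its group, was low for Cs (1420 CPM, next 1740), Sucla2 (237 CPM, next 294) and Mdh2 (271 CPM, next 322). PBS_REVERBa replicate 3, the library of its group rich in atrial RNA, was low for Oxct1 (1360 CPM, next 1830), Pdhb (326 CPM, next 408) and Pdhx (99.8 CPM, next 139). PBS_REVERBa replicate 4 was high for Idh2 (718 CPM, next 599), Fh1 (194 CPM, next 168) and Auh (82.6 CPM, next 68.4). PBS_GFP replicate 1 was high for Dld (314 CPM, next 298), Fh1 (184 CPM, next 165) and Mccc2 (42.8 CPM, next 36.4), and PBS_GFP replicate 4 was low for Ppm1k (260 CPM, next 293). C26_GFP replicate 6 was high for Mdh1 (725 CPM, next 627) and Pdp1 (100 CPM, next 75.6), and C26_REVERBa replicate 4 for Idh3b (128 CPM, next 113).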

How the results depend on the processing

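Of the 36 genes, the tumour effect under GFP was 2 to 4 higher and 12 to 17 lower over the fits that left out 1 library each, and the REV-ERBα effect with a tumour 6 to 19 higher and 0 to 2 lower. With the cardiomyocyte marker mean as a covariate these became 1 and 0, and 0 and 0, and Mdh1 (0.05), Mdh2 (0.05), Ppm1k (0.04) and Bdh1 (0.05), which had fallen, changed sign in the first, as did 7 genes that had not passed. Without the libraries above 10000000 counts, all from GFP-vector hearts, the tumour effect under GFP was 3 higher and 11 lower. That fit passed 15% of all genes, against 28.2% in the main fit. A replicate block gave 2 higher and 14 lower for the same effect, in a fit that passed 21.9% of all genes. For the REV-ERBα effect with a tumour, 7 genes were higher with a replicate block, where Cs, Sucla2, Dlat, Dbt, Hibch and Idh2 missed the threshold, and 6 in a fit of the compared groups alone. The count lower was 0 with the block, the compared groups alone, upper quartile scaling or without the libraries above 10000000 counts, and 2 with DESeq2, limma voom or a threshold of 0.1. The tumour effect under REV-ERBα gave 1 lower with RLE scaling, without the libraries rich in atrial RNA or with the atrial level as a covariate, 1 higher and 2 lower with DESeq2 and with voom, 2 and 2 at a threshold of 0.1, and 0 to 2 in each direction when 1 library was left out. The interaction gave 2 with DESeq2 and 1 with voom. Where neither this paragraph nor the Results give a share of all genes for a fit, it is not reported here. Without the libraries above 10000000 counts, 2 PBS_GFP libraries were left, and the tumour ratios under GFP stood at 0.95 (Idh2/Idh3a), -0.43 (Sucla2/Suclg2), 0.47 (Pdha1/Pdhb), 0.65 (Pdk2/Pdp1) and 0.48 (Bckdha/Bckdhb), each at an adjusted permutation value of 0.143; Sucla2/Suclg2 under REV-ERBα was -0.23 (0.0569). With 1 library left out at a time, ratios that crossed the threshold ranged, for the tumour under GFP, from 0.52 to 0.69 (Pdk2/Pdp1), 0.20 to 0.28 (Bckdk/Ppm1k) and 0.36 to 0.49 (Bckdha/Bckdhb); under REV-ERBα from -0.25 to -0.19 (Sucla2/Suclg2), 0.32 to 0.42 (Idh2/Idh3a) and 0.08 to 0.12 (Mccc1/Mccc2); and for REV-ERBα with a tumour from -0.37 to -0.26 (Bckdha/Bckdhb) and -0.18 to -0.13 (Pdha1/Pdhb). The cause of these changes was not tested. Replicate numbers do not pair the animals: over 32 same-numbered pairs the deviations correlated from -0.36 to 0.35 (median -0.05), and 4 of 29 libraries correlated best with their own number. With PBS groups of 4 and 5, precision is limited there.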
